A study of Mus musculus with 8 samples.

Results

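PRDM16 binding was described at 10 genes of the radial glia: Slc1a3, Fabp7, Nes, Vim, Ttyh1, Ptprz1, Tnc, Fam107a, Ednrb and Ddah1. The 10 genes are 10 of the 21883 protein-coding genes of the RefSeq annotation and were listed by name. A region (an interval of ChIP enrichment called by the authors) was counted for a gene when its summit lay in the gene body, or within 100 kb of the nearer gene end with no closer protein-coding gene. By this rule the 10 genes held 4 of the 4553 regions of cKO replicate 1 and 3 of the 3088 regions of cKO replicate 2. They held 41 of the 13852 regions of WT replicate 1 and 58 of the 26652 regions of WT replicate 2.

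The libraries came from chromatin immunoprecipitation with a PRDM16 antibody and sequencing (ChIP-seq) of lysed mouse cortex taken at E15.5, with 2 libraries per genotype. The conditional knockout (cKO) embryos were Emx1Ires-Cre; Prdm16flox/flox, and the embryos called wild type (WT) were Prdm16 flox/flox without Cre, so both groups carried the floxed alleles. Emx1-driven Cre acts in the dorsal telencephalic lineage, and a lysate of the whole cortex also holds cells outside that lineage, such as vessel cells and migrating interneurons. In such a lysate, binding in fewer cells and less binding per cell cannot be told apart. Nothing in the labels says whether the replicates of a genotype came from separate embryos, so their spread may be technical.

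Radial glia serve as stem cells while the cortex forms, and their long processes span the cortical wall. They are recognised by the glutamate transporter encoded by Slc1a3, by the fatty acid-binding protein of Fabp7 and by the intermediate filament proteins nestin and vimentin. Their surface and matrix carry the tweety family membrane protein of Ttyh1, the receptor phosphatase of Ptprz1, the endothelin receptor of Ednrb and the matrix glycoprotein tenascin C. Fam107a encodes an actin-associated protein that marks outer radial glia in human cortex, and Ddah1 encodes an enzyme that degrades an inhibitor of nitric oxide synthase. PRDM16 is a zinc-finger transcription factor expressed in radial glia. Peak lists do not measure expression, so neither the amount of PRDM16 left in the cKO nor the activity of these genes was checked here.

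Called regions covered at least part of the 250 bases before a start site at 6 of the 10 genes. At Fabp7 and Tnc this was so in both WT lists and no cKO list, and at Ttyh1 and Ptprz1 in both cKO lists and in WT replicate 2. At Vim it was so in WT replicate 2 alone and at Ddah1 in WT replicate 1 alone. The windows of the first 4 genes are shown because both replicates of a genotype covered them. Tnc has a further window, before another start, at chr4:64046937-64047186 on the minus strand. Both WT lists covered all 250 bases of it, and it is not printed. WT replicate 2 covered 194 bases of the Ttyh1 window and 175 of the Ptprz1 window, so the genotypes did not separate at these starts. The sequences are from RefSeq in the GRCm38.p6 (mm10) build and run 5′ to 3′ on the strand of the gene, at chr10:57784673-57784922 on the plus strand for Fabp7, chr4:64047016-64047265 on the minus strand for Tnc, chr7:4119280-4119529 on the plus strand for Ttyh1 and chr6:22875252-22875501 on the plus strand for Ptprz1. The Ptprz1 window ends at a transcript start that lies inside the annotated gene. In Fabp7 and Tnc the capitals mark a motif match. In Ttyh1 and Ptprz1 they mark the 115 and 26 bases that lay inside the regions of both cKO lists.
Fabp7: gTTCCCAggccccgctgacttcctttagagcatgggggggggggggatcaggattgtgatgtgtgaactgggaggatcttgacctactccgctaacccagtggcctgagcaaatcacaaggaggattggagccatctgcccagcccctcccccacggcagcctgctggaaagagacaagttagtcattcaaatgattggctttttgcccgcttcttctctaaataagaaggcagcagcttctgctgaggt
Tnc: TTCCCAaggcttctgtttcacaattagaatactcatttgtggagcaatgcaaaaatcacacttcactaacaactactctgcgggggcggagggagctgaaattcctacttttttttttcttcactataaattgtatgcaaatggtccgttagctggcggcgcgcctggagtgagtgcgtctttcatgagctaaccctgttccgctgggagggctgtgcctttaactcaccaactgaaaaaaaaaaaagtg
Ttyh1: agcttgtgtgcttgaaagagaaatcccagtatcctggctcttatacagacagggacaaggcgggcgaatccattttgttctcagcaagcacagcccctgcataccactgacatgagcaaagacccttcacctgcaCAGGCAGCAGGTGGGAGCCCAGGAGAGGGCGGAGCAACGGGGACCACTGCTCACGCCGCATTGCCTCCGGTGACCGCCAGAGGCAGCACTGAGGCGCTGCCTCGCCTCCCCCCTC
Ptprz1: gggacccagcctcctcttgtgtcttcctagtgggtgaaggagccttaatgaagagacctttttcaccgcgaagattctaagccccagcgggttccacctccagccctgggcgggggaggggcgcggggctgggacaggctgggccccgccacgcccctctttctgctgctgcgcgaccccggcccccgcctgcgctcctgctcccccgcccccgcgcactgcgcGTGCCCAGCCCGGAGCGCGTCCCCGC
Both strands of these windows were searched for 8 short motifs, and so were 21262 such windows before the starts of protein-coding genes. The printed windows of Fabp7 and Tnc each held the RBPJ motif TGGGAA, read as TTCCCA on the printed strand, which overlapped no other match and occurred in 20.9% of all windows. The others were the E-box CAGCTG in 12.1% of all windows, the nuclear factor I motif TTGGCA in 11.5%, the homeobox motif TAATTA in 4.30%, the SOX motif ACAAAG in 14.9%, its variant ACAATG in 9.35%, the GATA-like motif AGATAA in 8.81% and the AP-1 motif TGANTCA in 6.13%. The printed windows of Ttyh1 and Ptprz1 held none of the 8. The printed Tnc match lay inside the region of WT replicate 1 but outside that of WT replicate 2, which covered 223 of the 250 bases. The Tnc window that is not printed held TGGGAA at -81 from its start. It also held the nuclear factor I motif, read as TGCCAA, at -19. In the printed windows the share of G and C was 54.8% in Fabp7, 44.8% in Tnc, 60.4% in Ttyh1 and 71.6% in Ptprz1.

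All 10 genes carried PRDM16 regions in the WT cortex, and few regions were called at them in the cKO cortex. At 9 of the 10 genes both cKO libraries held fewer regions than either WT library, a pattern found at 15.7% of all protein-coding genes. None of the 10 had more regions in both cKO libraries than in either WT library, as 1.7% of all genes did. The exception was Ttyh1, with 2 and 1 regions in cKO replicates 1 and 2 against 2 and 4 in WT replicates 1 and 2. At Fabp7, Nes, Vim, Tnc, Fam107a, Ednrb and Ddah1 the cKO lists held no region. Thus 3 of the 10 had a region in each cKO list, against 16.4% and 11.8% of all genes in cKO replicates 1 and 2, and all 10 had one in each WT list, against 23.6% and 34.5% in WT replicates 1 and 2. An exact two-sided permutation test of the number of regions gave p = 0.333 at each of the 9 genes, the smallest value that 2 libraries against 2 allow, and exact p = 0.667 at Ttyh1, so no gene could pass a threshold of 0.05.

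**Figure D1:**
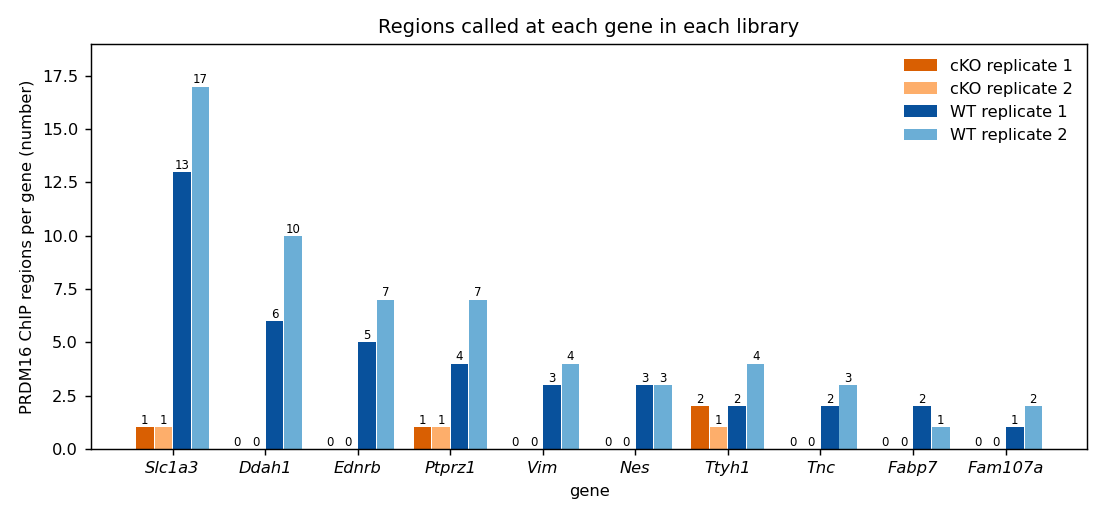
Number of PRDM16 ChIP regions (vertical axis) at each of the 10 genes in the 2 cKO libraries (orange) and the 2 WT libraries (blue), with the count above each bar. Slc1a3 holds 1 region in each cKO library against 13 and 17 in the WT libraries, and 7 genes hold none in the cKO.

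The regions of WT replicates 1 and 2 overlapped at 32 places around these genes, and all 10 genes had at least 1 of them, against 18.3% of all protein-coding genes. None of the 32 overlapped a region of either cKO list, a share of 100% (Wilson 95% interval 89.3 to 100), against 91.5% of all 10090 regions found in both WT lists. The 91.5% is inside that interval. These 32 are called WT-only regions. All 10 genes therefore had at least 1, against 16.6% of all protein-coding genes, and 3 of the 10 (Slc1a3, Ddah1 and Ednrb) had 4 or more, against 2.13%. The median was 2.5 WT-only regions per gene among the 10 genes and 0 among all genes. The 10 genes together own 1.38 Mb of genome by the rule, so they carried 2.32 shared WT regions per 100 kb, against 0.423 per 100 kb over the genome within 100 kb of any protein-coding gene.

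Whether a region of given strength could have been called in the cKO was read from the lists. The smallest fold enrichment that a library could call at its median background was 3.18 and 3.29 in cKO replicates 1 and 2, and 3.53 and 3.01 in WT replicates 1 and 2. Both WT folds of all 32 regions were above both cKO limits, as in 99.1% of all WT-only regions. With the lower WT fold divided by 2, this held for 21 of the 32, against 45.5% of all WT-only regions, so at the other 11 a fold reduced by that much was under the limit of at least 1 cKO list. Reads per base in the background over the whole genome came to 2.95 and 2.52 for cKO replicates 1 and 2 and to 0.777 and 1.78 for WT replicates 1 and 2. With 1 added to reads and background, a given ratio of reads to background yields a higher fold where the background is higher. The comparison of WT folds with cKO limits made no allowance for this. The cKO and WT libraries also carry different library identifiers in the deposited names, so genotype and any batch the identifiers mark cannot be told apart.

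Slc1a3, the gene of the glutamate transporter, held the most regions of the 10 genes, 1 and 1 in the cKO replicates and 13 and 17 in the WT replicates. The mean was 1 in cKO and 15 ± 2.83 in WT (SD, n = 2 each). The WT count lay beyond that of the next gene, Ddah1, without overlap between their replicates. The strongest Slc1a3 region lay in the gene body, on chromosome 15 from 8659199 to 8660565, with 48.1-fold and 38.6-fold enrichment in WT replicates 1 and 2. Its summit carried 102 reads over a background of 1.14 in WT replicate 1 and 253 reads over 5.58 in WT replicate 2. It ranked 28 among the 10090 shared WT regions by mean fold. Other shared regions in the body lay on either side, at 9.07-fold and 14.9-fold from 8663589 to 8664565 and at 5.07-fold and 7.25-fold from 8658287 to 8658620.

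Slc1a3 also had a group of regions far upstream. Shared WT regions with summits 70522, 71521, 72827 and 74895 bases before the annotated start reached 11.8-fold, 7.48-fold, 4.26-fold and 13.5-fold enrichment in WT replicate 1 and 18.3-fold, 11.3-fold, 7.99-fold and 19.5-fold in WT replicate 2. All 4 were higher in WT replicate 2. Nearer the gene, shared regions lay 6282 bases upstream with 7.43-fold and 7.99-fold, 22896 bases upstream with 5.15-fold and 4.74-fold, and 4445 bases beyond the end with 6.90-fold and 12.1-fold in WT replicates 1 and 2. At the start only WT replicate 2 held a region within 1 kb, of 5.11-fold. In the cKO the only Slc1a3 region lay a little further out, with summits 81450 and 81444 bases upstream and 5.12-fold and 4.27-fold enrichment in cKO replicates 1 and 2. It overlapped no WT region.

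Fabp7, the gene of the brain fatty acid-binding protein, had its binding at the start of the gene. No region was called in either cKO list. A region on chromosome 10 from 57783380 to 57785242 reached 19.9-fold in WT replicate 1 and 23.9-fold in WT replicate 2, with a mean of 21.9 ± 2.86 (SD, n = 2). The summits lay 152 and 119 bases before the start, inside the window printed above, which both WT regions covered in full. They carried 40 and 112 reads over backgrounds of 1.06 and 3.72. It was the strongest of the 4 shared regions that lay within 1 kb of a start among the 10 genes.

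The intermediate filament genes Nes and Vim had no region in the cKO lists and 3 to 4 in each WT list. Nes had 3 shared WT regions, before the start, in the body and beyond the end, and the one in the body was the strongest with 9.57-fold and 9.74-fold in WT replicates 1 and 2. Its summit lay 3347 bases into the gene. At 21.8 kb the stretch assigned to Nes was the smallest of the 10, and its 13.8 shared regions per 100 kb were the densest. Vim had 2 shared WT regions. The stronger lay 1817 bases into the gene on chromosome 2 from 13575443 to 13576693, with 15.7-fold and 15.8-fold enrichment, and differed little between replicates. Both genes had a weaker shared region before the start, at 7.32-fold and 6.17-fold for Nes (759 bases) and 7.47-fold and 5.64-fold for Vim (523 bases).

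Ttyh1 had the strongest region among the 10 genes by mean fold. It lay in the gene body on chromosome 7 from 4123463 to 4124902, with its summit 5009 bases after the start. Its enrichment was 29.5-fold in WT replicate 1 and 63.3-fold in WT replicate 2, a mean of 46.4 ± 23.9 (SD, n = 2), so the 2 WT libraries differed widely and its lead over Slc1a3 was within that spread. The summit carried 89 and 239 reads. It ranked 8 among the 26652 regions of WT replicate 2 and 144 among the 13852 of WT replicate 1. No cKO region overlapped it.

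At the start of Ttyh1 the cKO lists did hold a region. It reached 6.12-fold and 5.404-fold enrichment in cKO replicates 1 and 2, with 24 and 18 reads over backgrounds of 3.09 and 2.52. WT replicate 2 had a 5.39-fold region there with 14 reads over 1.78, and WT replicate 1 had none. Both cKO folds were above the limit of 3.53 of WT replicate 1, but its background over the whole genome was lower, at 0.777. With 1 added to reads and background, the same ratio of reads to background gives a lower fold there. Whether WT replicate 1 could have called the region was not tested. The summits lay 34 bases before and 38 bases after the start in cKO replicates 1 and 2 and 72 bases before it in WT replicate 2. Both cKO regions overlapped that of WT replicate 2. The start and the body of the same gene thus differed: the body region was called in both WT lists and no cKO list, and the start region in both cKO lists and 1 WT list. A second cKO region at Ttyh1, 15917 bases upstream with 5.79-fold enrichment, was held by cKO replicate 1 alone.

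Ptprz1, the gene of a receptor phosphatase that binds pleiotrophin, showed a similar arrangement. Its strongest WT region lay 80740 bases upstream of the annotated start, on chromosome 6 from 22793947 to 22795809, with 26.2-fold and 26.1-fold enrichment in WT replicates 1 and 2. A further shared region 41050 bases upstream had 8.91-fold and 13.9-fold, and another in the body had 11.3-fold and 8.42-fold. No cKO region overlapped any of the 3. At the gene start, cKO replicates 1 and 2 held regions of 3.31-fold and 4.91-fold enrichment, with 22 and 20 reads over backgrounds of 5.95 and 3.27. WT replicate 2 held a 4.24-fold region there with 11 reads, and WT replicate 1 held none. Only the region of cKO replicate 2 overlapped it. With 3.31-fold, cKO replicate 1 was close to its own limit of 3.18.

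**Figure D2:**
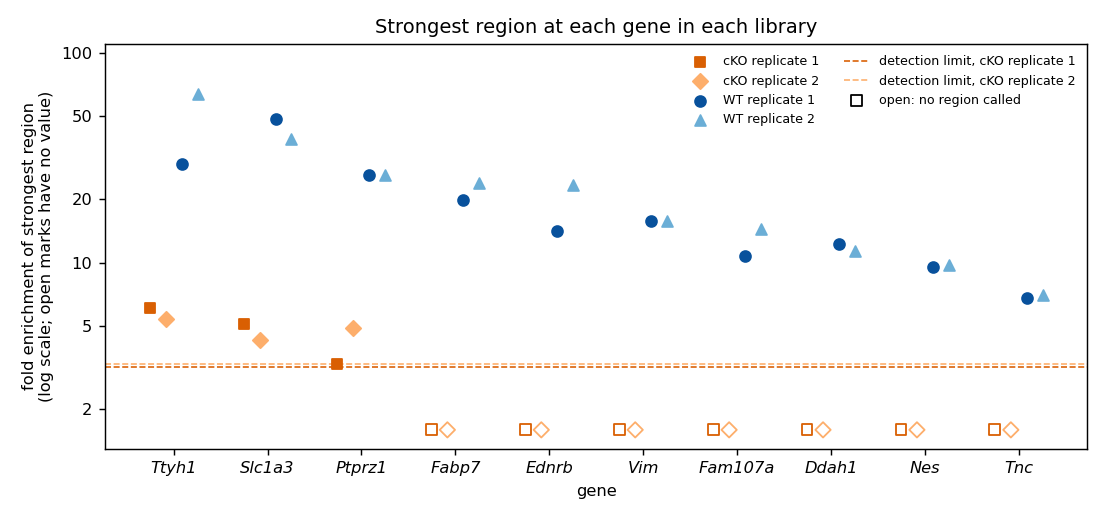
Fold enrichment of the strongest region (vertical axis, log scale) at each gene in the cKO libraries (orange) and the WT libraries (blue); open marks stand for libraries with no region and carry no value, and dashed lines give the cKO detection limits of 3.18 and 3.29. All WT marks lie above the cKO marks, from 6.80 at Tnc to 63.3 at Ttyh1, and the highest cKO mark is 6.12.

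Tnc, which encodes the matrix protein tenascin C, had the weakest binding of the 10 genes. Its strongest shared region lay over the start on chromosome 4 from 64046644 to 64047277, with no region in the cKO lists and 6.80-fold and 6.99-fold in WT replicates 1 and 2. The other shared region lay 95617 bases upstream with 6.05-fold and 3.60-fold. Regions of Tnc lay on both sides of the 100 kb limit. A 6.90-fold region of WT replicate 2 lay 99096 bases outside the gene and was counted, whereas a 12.01-fold region of WT replicate 2 at 102013 bases and a 9.41-fold region of WT replicate 1 at 102066 bases were not.

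Fam107a had a shared WT region 12159 bases upstream, on chromosome 14 from 8329538 to 8330153, with no region in the cKO lists and 10.8-fold and 14.4-fold in WT replicates 1 and 2. WT replicate 2 alone held a further 5.24-fold region. Its body and its annotated starts held no region in any of the 4 libraries.

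Ednrb, the gene of the endothelin B receptor, had its binding mostly outside the gene. The cKO lists held no region and the WT lists 5 and 7. The strongest by mean fold lay 36327 bases beyond the end of the gene on chromosome 14 from 103777390 to 103779189, with 13.8-fold and 23.4-fold in WT replicates 1 and 2. Next came a region 50433 bases beyond the end with 14.2-fold and 14.0-fold. The other 2 shared regions were upstream and weaker, at 6.75-fold and 8.74-fold (5677 bases) and 4.64-fold and 5.13-fold (54859 bases). None of the 4 shared regions lay in the gene body, where WT replicate 1 alone had a 6.07-fold region and WT replicate 2 alone had regions of 5.37-fold and 4.22-fold.

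Ddah1 differed in that its 5 shared WT regions all lay in the body. The cKO lists held no region at Ddah1, and the WT lists held 6 and 10. The strongest by mean fold was on chromosome 3 from 145885199 to 145886267, with 12.3-fold and 10.2-fold in WT replicates 1 and 2. It and 2 neighbours with 9.54-fold and 7.61-fold and with 5.32-fold and 5.22-fold had summits 127008 to 132366 bases from the start, in the last part of the gene. Closer to the start, a region 58767 bases into the gene had 5.14-fold and 11.4-fold enrichment, and another at 67005 bases had 5.49-fold and 3.995-fold. At the start itself WT replicate 1 alone had a 5.75-fold region.

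**Figure D3:**
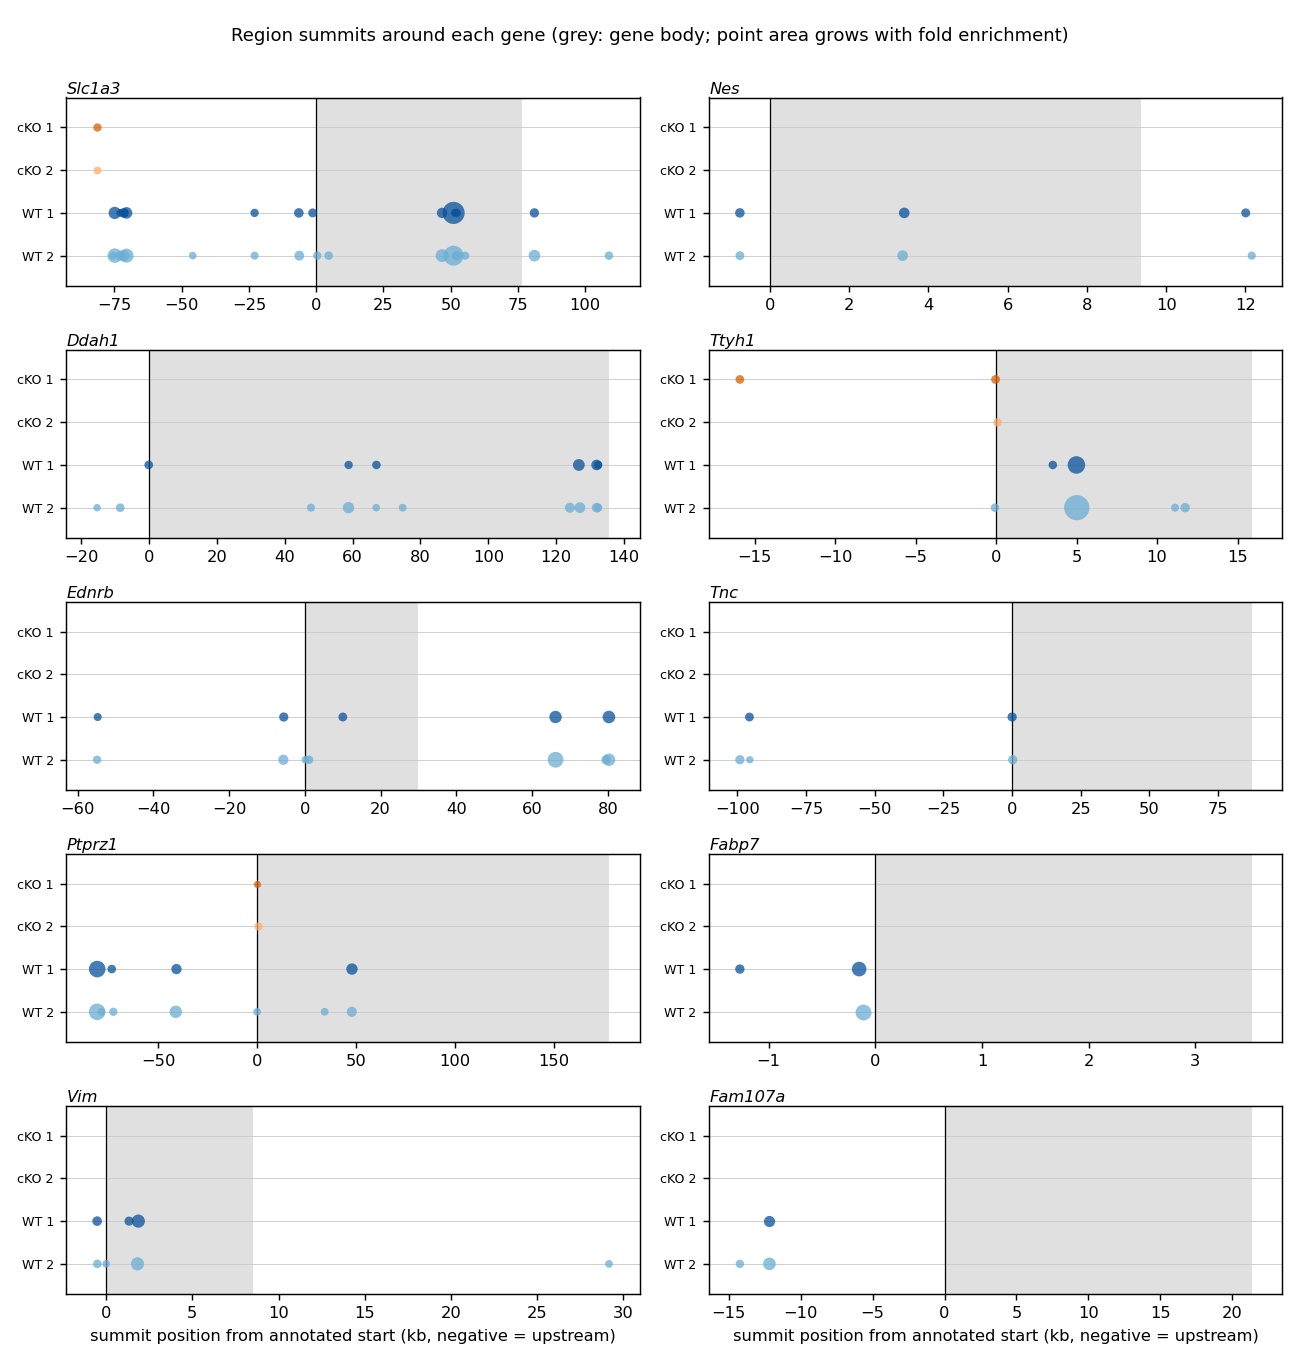
Position of every region summit relative to the annotated start of each gene (horizontal axis, kb, negative is upstream), in 1 row per library with cKO above WT; grey marks the gene body and point area grows with fold enrichment. The cKO points at Ttyh1 and Ptprz1 sit at the start, except for 1 point of cKO replicate 1 that lies 15917 bases upstream of Ttyh1, and the largest WT points lie 5009 bases into Ttyh1 and 80740 bases upstream of Ptprz1.

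Across the 10 genes the 32 WT-only regions took several positions. Their summits lay within 1 kb of a gene start in 4 cases (Fabp7, Nes, Vim and Tnc), elsewhere in the body in 12, further upstream in 12 and beyond the gene end in 4. The share at gene ends was 12.5% (Wilson 95% interval 4.97 to 28.1), against 5.62% of all WT-only regions, which is inside that interval. The share further outside genes was 50%, against 48.0% of all. Both shares of all WT-only regions include regions more than 100 kb from any protein-coding gene, which the rule gives to no gene. Of the 10090 shared WT regions, 8082 lay within 100 kb, so these shares are not taken over like sets. The bases just before a start were covered at 2 and 2 of the 10 genes in cKO replicates 1 and 2, against 6.04% and 4.47% of the 17491 genes with such a window in the promoter table. In WT replicates 1 and 2 they were covered at 3 and 5 of the 10 genes, against 3.85% and 7.42% of those 17491 genes. At least 1 region shared by both cKO lists was present at 3 of the 10 genes (Slc1a3, Ttyh1 and Ptprz1), against 6.83% of all genes. The members were chosen with earlier results known, so these shares are a description.

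Agreement between the WT replicates was described by overlap and by rank. Of the regions of WT replicate 1 at the 10 genes, 87.8% (36 of 41) overlapped a region of WT replicate 2, and 55.2% (32 of 58) of those of WT replicate 2 overlapped replicate 1. For all regions the shares were 78.2% and 38.7%. Over the 32 shared regions Spearman's rho between the 2 WT folds was 0.82, against 0.61 over all 10090, where points of 1 library share its depth. The median of the mean folds was 9.45 at the 10 genes and 7.46 over all shared WT regions, and the median widths were 695 and 541 bp. By the mean of each WT library's strongest region the order was Ttyh1, Slc1a3, Ptprz1, Fabp7, Ednrb, Vim, Fam107a, Ddah1, Nes and Tnc. The WT replicates of neighbours overlapped between Ttyh1 and Slc1a3, Fabp7 and Ednrb, Ednrb and Vim, and Fam107a and Ddah1, and did not overlap between the other neighbours.

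**Figure D4:**
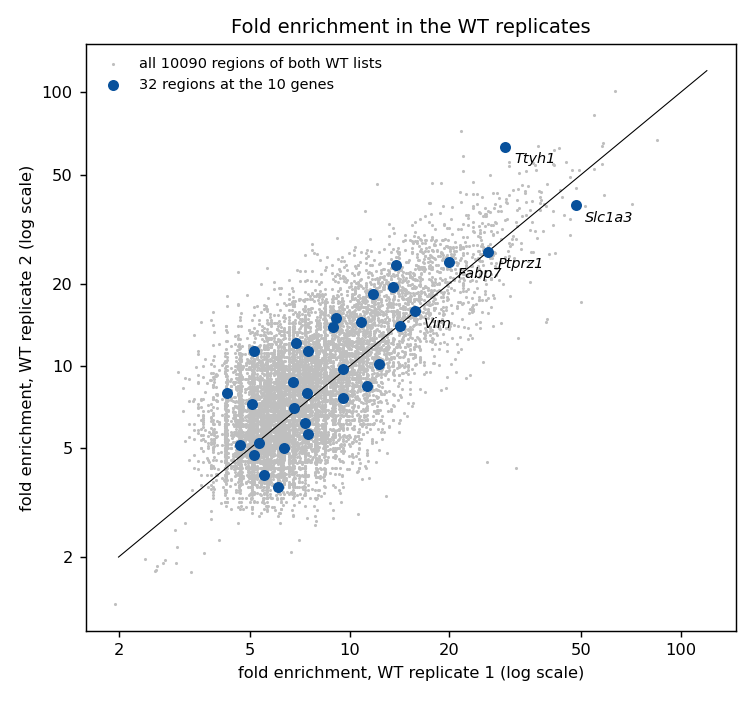
Fold enrichment in WT replicate 1 (horizontal axis) and WT replicate 2 (vertical axis), both on log scales, of the 10090 regions found in both WT lists (grey) and of the 32 at the 10 genes (blue); the line marks equal values. The strongest regions of Ttyh1 and Slc1a3 rank 20 and 28 of 10090 by mean fold, and the other regions, including 9 of the 10 of Slc1a3, lie at lower values.

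List length bears on these counts, since the WT lists are longer. When each list was shortened to its 3088 most significant regions, the 10 genes held 3 and 3 regions in cKO replicates 1 and 2 and 13 and 16 in WT replicates 1 and 2. In those lists Nes and Tnc had no region in any library, and Ttyh1 had more in cKO than in WT, with a mean difference (cKO minus WT) of 0.50 regions.

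**Figure D5:**
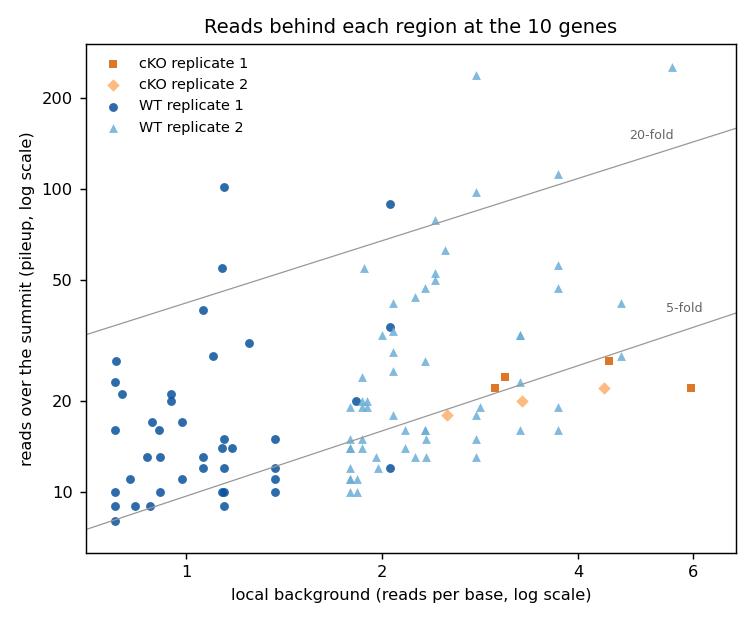
Reads over the summit (vertical axis, log scale) against the local background in reads per base (horizontal axis, log scale) for every region at the 10 genes, by library; grey lines mark 5-fold and 20-fold enrichment, taken as reads plus 1 over background plus 1. The cKO points lie at 18 to 27 reads near the 5-fold line or under it, whereas the WT points reach 253 reads.

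Other genes of radial glia carried WT-only regions as well. Of 28 further radial glia genes 22 had at least 1, against 16.6% of all protein-coding genes. Fewer regions in both cKO lists than in either WT list were held by 22 of the 28, against 15.7% of all protein-coding genes. The 4 highest were Notch2, a Notch receptor gene, at 51.5 ± 14.3, Notch1 at 26.8 ± 0.794, the transcription factor gene Sox9 at 22.9 ± 0.698 and Lifr, a cytokine receptor subunit gene, at 22.2 ± 6.23 (mean fold ± SD, n = 2 WT libraries). The summed regions of these 28 genes were 10 and 6 in cKO replicates 1 and 2 and 111 and 175 in WT replicates 1 and 2.

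Of 25 paralogues of the 10 genes, which belong to the same protein families, 10 (40%) had a WT-only region, against 16.6% of all protein-coding genes. The difference between the lists was not tested. The highest was Ptprg, a receptor phosphatase gene related to Ptprz1, at 20.9 ± 0.698, followed by the intermediate filament gene Synm at 13.5 ± 2.86, the tenascin R gene Tnr at 12.8 ± 3.15 and the amino acid transporter gene Slc1a4 at 11.4 ± 7.65. Among the other fatty acid-binding genes, Fabp3 and Fabp4 had no region in any list, and Fabp5 had 3 and 1 regions in cKO replicates 1 and 2 and 0 and 1 in WT replicates 1 and 2. Of 13 ligands and partners of the members 5 (38.5%) had a WT-only region, against the same 16.6% of all genes. Ptn, which encodes the Ptprz1 ligand pleiotrophin, had the highest fold, with 5 WT-only regions, no cKO region and a strongest region of 37.8 ± 3.29 that lay 69821 bases outside the gene. Edn2, an endothelin gene, had 16.6 ± 2.67, the adhesion gene Ncam1 14.96 ± 2.05 and Ece1, which encodes an endothelin-processing enzyme, 12.8 ± 3.42 (mean fold ± SD, n = 2 WT libraries).

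Markers of other cell types in the cortex were counted in the same way. Of neuronal markers 6 of 8 had a WT-only region, led by Map2 at 12.4 ± 7.20, and of astrocyte markers 6 of 8, led by Fgfr3 at 19.9 ± 4.94. Among endothelial and mural markers 1 of 9 had one (Pecam1 at 12.7 ± 3.41), and among microglia markers 0 of 8 had one. Over all protein-coding genes the share was 16.6%, and in the endothelial and mural list it was 11.1%. The differences between these short lists were not tested. The astrocyte list shares Gja1 with the other radial glia genes and Slc1a2 and Gfap with the paralogues. Prdm16 itself held 2 and 2 regions in cKO replicates 1 and 2 and 16 and 22 in WT replicates 1 and 2.

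The protein-coding genes whose counts in the 4 libraries were most like the average of the 10 genes were Coro1c, Ildr2, Fam174b, Lnpk and Cntn6. Each had no region in the cKO lists and 3 and 5 regions in WT replicates 1 and 2, at a Euclidean distance of 0.49 on log2(regions + 1) over 4 libraries. They were taken by strongest fold from 39 genes outside the list with this same distance.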

How the data were processed

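Read trimming and checks (cutadapt, FastQC), the aligner Bowtie2 2.2.8, the peak caller MACS2 2.1.1 and the build mm10 are credited to the submitters' processing notes; their settings, and which input was the control of which library, are not given in the sources used here. The authors deposited 1 peak list per ChIP library, so replicates were not pooled. In the deposited lists each peak has a fold enrichment over local background (a ratio), −log10 of its p-value and −log10 of its q-value, and a score that repeats the q-value and was not used. Folds describe and rank peaks within a list.

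Lines on contigs outside the assembled chromosomes were left out, 12 to 37 per list; no lines overlapped within a list. Regions overlapping by at least 1 bp were shared, and the fold of a shared region is that of its strongest peak per library. Summit reads and background were solved from fold and p-value, to within 0.001 on the −log10 scale. Region assignment, overlap and this step were tested on simulated data. Detection limits are the smallest fold that passes a list's own weakest p-value at its median background. Intervals are Wilson 95% and cover counting error only. Gene positions and promoters are from RefSeq GRCm38.p6, all 10 genes matched, and coordinates count from 1. Computation used Python 3.11.15, numpy 2.4.6, pandas 2.3.3 and scipy 1.17.1.

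The members, the gene lists and the tests were chosen with earlier results of these data known. The genes named are the 10 members, up to 4 genes per list with the highest mean WT fold (fewer are printed for cell type markers), the 5 of most alike counts, and Prdm16; Fabp3, Fabp4 and Fabp5 were picked after their values were seen. Regions were not read for sequence, since a genome sequence was not used here. Input libraries were not analysed here.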

Additional observations from a re-analysis of the deposited data

How the results depend on the processing

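Among the summary values recomputed for the comparisons, 52 stayed within their interval, their spread or 1.5 times, and 7 moved. Among the values of single genes, 168 kept their direction (counts) or stayed within their spread (folds), 2 moved, 4 had no difference left and 1 reversed. Some of the values that stayed could not have moved. The strongest WT fold does not use the cKO lists, so leaving out a cKO replicate cannot change it. The replicate block repeats the same differences for each gene. The strongest shared fold of Ptprz1 was 11.4 with a 50 kb window and 9.86 with the gene body alone, against 26.2. The number of genes with fewer regions in both cKO lists was 7 of 10 with the gene body alone and 7 with lists of equal length, against 9. With the gene body alone, the median of the strongest shared WT fold was 11.2 over 7 genes, against 17.2 over 10, and 5 paralogues had a WT-only region, against 10. With lists of equal length, 13 of the other radial glia genes and 4 paralogues had one, against 22 and 10; the Ttyh1 count turned to 0.50 (cKO minus WT). Requiring the lower WT fold divided by 2 to pass both cKO limits left 65.6% of the 32 regions. The cause of these moves was not tested, beyond the smaller window and shorter lists themselves. Leaving out each replicate in turn gave 9 to 10 genes with fewer regions in the cKO, 96.6% to 100% of WT regions not called in the cKO, a median fold of 14.98 to 19.6, 22 to 25 other radial glia genes, 10 to 13 paralogues and 5 to 10 ligands and partners. The last count was 10 without WT replicate 1 and 9 without WT replicate 2, since 1 list then stood for both. Counts over all protein-coding genes were not taken at these changed settings. The shares of 15.7% (fewer regions in both cKO lists) and 16.6% (a WT-only region) belong to the full lists and the 100 kb window. The changed counts therefore have no such share beside them.

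With the replicate number as a block, 9 of the 10 genes again held fewer regions in the cKO in both pairs, with exact two-sided p = 0.5, the smallest that 2 pairs allow. Deviations of same-numbered libraries correlated at 0.0191 over 9609 genes, and no label ties the numbers across genotypes. Peaks hold no read totals, and 2 libraries per genotype limit every comparison.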
